A study of Mus musculus with 16 samples.

Results

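Distal intergenic regions beyond 50 kb are open chromatin that the authors' annotation places outside genes, over 50 kb from the nearest transcript start. They were taken from the authors' deposited table of ATAC-seq regions by 2 of its columns, an annotation of distal intergenic and an absolute distance to the transcript start above 50 kb. The rule left 1171 of 40796 regions. It used position and annotation alone, so the measured difference between the 2 cell populations played no part in the choice. The regions were nearest to 712 annotated transcripts' genes, 552 lay upstream and 619 downstream of the start, and the median distance was 72.6 kb, with the farthest at 463 kb.

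Open chromatin far from genes often marks enhancers, short elements that bind transcription factors and act on a promoter over a long stretch of DNA by looping. Myeloid cells rely on many such elements, bound by factors such as PU.1, C/EBP, RUNX and AP-1, and their accessibility tends to be more particular to a cell type than that of promoters. An open distal region may also mark an insulator bound by CTCF or the start of a long noncoding RNA, and its nearest gene is not always its target.

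The study sorted monocytes from the spleens of 7-day-old wild type C57BL/6 mice by their surface level of neuropilin-1 (Nrp1), a receptor subunit shared by semaphorin and VEGF signalling. The Nrp1 high and the Nrp1 low fraction were compared by ATAC-seq, which cuts accessible DNA with a transposase (5 libraries each, 50000 cells a library), and by RNA-seq (3 libraries each, 80000 cells a library). The series' design text sets out to learn whether Nrp1 takes part in the immune suppression of newborns. The labels give the genotype of all mice as wild type, name no treatment, and call the cells myeloid derived suppressor cells. The sources used here do not give the other markers of the gate or say whether libraries came from separate mice. The spread that the RNA p-values and the deposited ATAC p-values rest on could therefore be technical.

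For ATAC-seq the values are the authors' own, one log2 fold (Nrp1 high minus Nrp1 low), p-value and false discovery rate (FDR) per region, with no value per library and no known depth. No column states the base or the direction of the fold. Base 2 is taken from the layout of the table and the direction from the comparison's name, so every fold given here rests on both readings. A region was called where the deposited FDR was under 0.05. RNA totals ran from 23395363 to 35127433 estimated counts a library. In RNA all 7 monocyte markers checked were detected, with a summed level of 26073 to 34953 CPM (counts scaled to a common library size) in the Nrp1 high and 31474 to 47678 CPM in the Nrp1 low libraries. The summed level of 7 neutrophil markers was 6213 to 7209 CPM in the high and 39912 to 68409 CPM in the low libraries. Of the 7, 5 were called lower, against 0.676% of all genes tested. Lymphoid markers (6 genes) summed to 176 to 209 CPM against 277 to 402 CPM with 1 called lower, and platelet markers (3 genes) to 6.08 to 11.2 CPM against 36.5 to 47.5 CPM with 2 called lower. Erythroid markers (3 genes) summed to 2095 to 2469 CPM in the high and 2082 to 3944 CPM in the low libraries, and dendritic markers (3 genes) to 9.65 to 17.1 CPM and 6.36 to 8.17 CPM, with none called. The largest gene was Lyz2 in the monocyte, S100a8 in the neutrophil and Hba-a1 in the erythroid sum, so a sum can follow 1 abundant gene. No marker on these lists was at 0 in all libraries, and the part of other cells in the ATAC differences was not tested.

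Sequence was at hand only where a region overlapped a RefSeq promoter window (GRCm38.p6, 250 bases before to 50 bases after a gene's start). This was so for 12 of the 1171 regions, all at starts of long noncoding RNAs and none of them called, so the sequences show what such a region can hold and not what sets the called ones apart. The first printed is the stretch of lowest deposited FDR (0.0997) among the 12, and the other 3 are shown for the different motifs they hold. All 4 are written on the plus strand, 5′ to 3′, with motif matches on either strand in capitals.
Gm36223 start, chr5:111509181-111509327: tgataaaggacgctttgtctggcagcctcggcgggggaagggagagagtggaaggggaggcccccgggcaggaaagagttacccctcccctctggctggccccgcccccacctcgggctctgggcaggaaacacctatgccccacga
Gm39816 start, chr11:45752894-45753150: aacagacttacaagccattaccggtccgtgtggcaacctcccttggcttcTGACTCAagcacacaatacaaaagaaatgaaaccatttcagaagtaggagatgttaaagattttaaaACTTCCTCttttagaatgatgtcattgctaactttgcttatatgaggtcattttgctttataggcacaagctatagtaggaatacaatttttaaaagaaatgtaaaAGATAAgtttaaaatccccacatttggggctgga
Gm31601 start, chr5:35161292-35161590: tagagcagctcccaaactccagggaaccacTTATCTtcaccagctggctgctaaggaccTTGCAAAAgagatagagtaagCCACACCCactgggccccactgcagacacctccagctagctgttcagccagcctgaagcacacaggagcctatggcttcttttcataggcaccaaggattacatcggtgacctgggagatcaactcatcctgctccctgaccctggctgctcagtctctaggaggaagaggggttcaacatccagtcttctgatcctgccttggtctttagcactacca
Gm39311 start, chr9:23581032-23581323: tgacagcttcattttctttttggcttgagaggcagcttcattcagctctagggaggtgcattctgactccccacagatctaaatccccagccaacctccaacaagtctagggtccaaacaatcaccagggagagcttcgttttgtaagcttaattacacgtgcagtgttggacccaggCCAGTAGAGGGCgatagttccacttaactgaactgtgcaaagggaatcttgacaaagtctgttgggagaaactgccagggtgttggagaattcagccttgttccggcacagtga

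The Gm36223 stretch was 66.7% G and C and held none of the 10 motifs searched. The Gm39816 stretch held the AP-1 motif TGANTCA, the PU.1 motif GAGGAAGT (on the minus strand) and the GATA motif AGATAA. The AP-1 letters read the same on both strands. The Gm31601 stretch held the C/EBP motif TTGCNNAA, the KLF motif CCACACCC and the GATA motif on the minus strand. The Gm39311 stretch held the CTCF motif, searched as a pattern with 4 open positions. Among all 32851 RefSeq promoter windows, the share with each motif on either strand was 7.81% for AP-1, 3.20% for PU.1, 11.2% for GATA, 10.8% for C/EBP, 3.56% for KLF and 2.43% for CTCF. The deposited log2 folds of these regions were 0.45 at Gm36223, -0.22 at Gm39816, 0.01 at Gm31601 and -0.32 at Gm39311. The remaining motifs searched were RUNX (TGTGGTT), ETS-IRF, IRF and NF-kB, of which NF-kB was found in 1 of the 12 and the other three in none.

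Among the distal regions beyond 50 kb, 137 of 1171 (11.7%) were called in the authors' deposited table, against 7.55% of all regions. Of these, 73 were more accessible in Nrp1 high cells (6.23%, against 2.56% of all regions) and 64 less accessible (5.47%, against 4.99%). The higher calls thus made up 53.3% of the called distal regions beyond 50 kb, compared with 33.9% of called regions in the whole table, 34.9% of called distal intergenic regions within 50 kb of a start and 30.5% of called regions within 1 kb of a start. Without the 81 regions of chromosome 1 the numbers were 59 higher and 61 lower, so higher calls were no longer the majority. Over all 1171 regions the deposited fold leaned the other way, with a median log2 fold of -0.12 (-0.09 in the whole table) and 458 regions above 0 (39.1%, against 38.5%).

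The folds beyond 50 kb were also more spread. Their standard deviation across regions was 0.57 on the deposited log2 scale, compared with 0.42 in the whole table. A deposited log2 fold of at least 1 in size was reached by 81 regions (6.92%, against 3.14% of all regions), 54 of them upward and 27 downward. The called higher regions had a median deposited log2 fold of 1.26 (2.40-fold) and the called lower ones of -0.87 (1.82-fold lower). The size of a deposited fold divided by the normal deviate of its p-value, a rough standard error of the fold, had a median of 0.27 beyond 50 kb, 0.22 over all regions and 0.17 within 1 kb of a start. It was 0.34 for the called higher and 0.25 for the called lower distal regions. Among called regions this measure rises with the size of the fold it is computed from. It therefore cannot show which calls were measured more precisely.

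**Figure D1:**
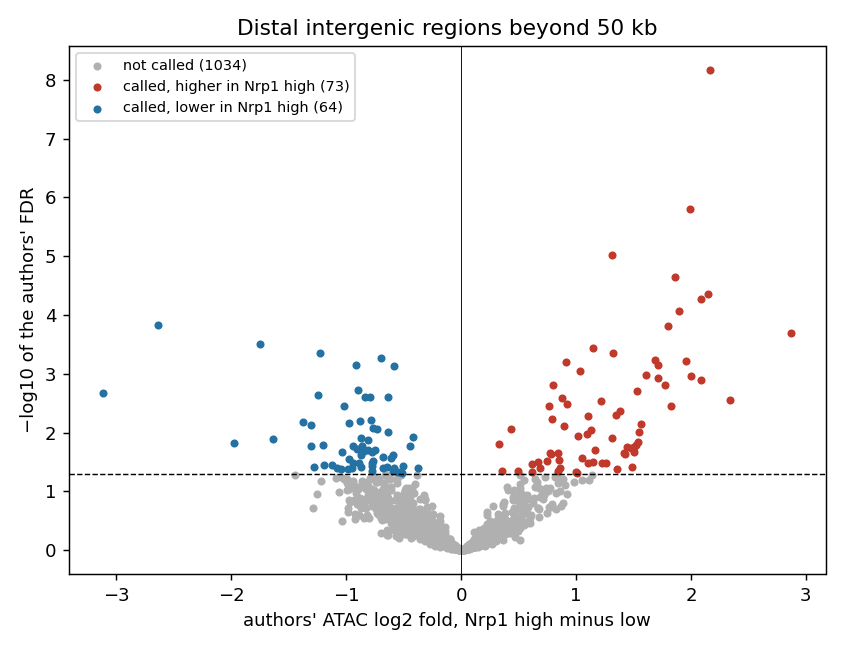
Each point is 1 of the 1171 distal intergenic regions beyond 50 kb, with the authors' log2 fold (Nrp1 high minus low) on the horizontal axis and −log10 of their FDR on the vertical axis. The 73 called higher regions (red) reach a smaller FDR and mostly larger folds than the 64 called lower ones (blue), and the dashed line is an FDR of 0.05.

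The share of higher calls among distal intergenic regions grew with distance from the transcript start in the authors' deposited table, while the share of lower calls moved less. At 3 to 10 kb 2.66% of 3384 regions were called higher, at 25 to 50 kb 4.04% of 1805, at 50 to 75 kb 5.45% of 624 and at 100 to 150 kb 7.73% of 181. The lower share over the same bins was 5.61%, 6.54%, 5.61% and 6.63%. From 150 to 500 kb 6.54% of 107 regions were higher and 4.67% lower, so the rise did not continue in the farthest bin. Among called regions, the part that was higher went from 32.1% at 3 to 10 kb to 49.3% at 50 to 75 kb and 60.0% at 75 to 100 kb.

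Whether the change was gradual or a step at the limit of 50 kb was not tested. Among called distal intergenic regions, 38.2% were higher at 25 to 50 kb and 49.3% at 50 to 75 kb. The closest regions beyond the limit were one 50.001 kb upstream of Gm28501 (deposited log2 fold -0.70, FDR 0.163) and one 50.044 kb downstream of the start of 1700065J11Rik (0.07, FDR 0.895). The closest ones within it lay 49.999 kb from Gm43576 (0.79, FDR 0.0535) and 49.974 kb from Cxcr4, the receptor for the chemokine CXCL12 (-0.47, FDR 0.170). None of the 4 was called.

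**Figure D2:**
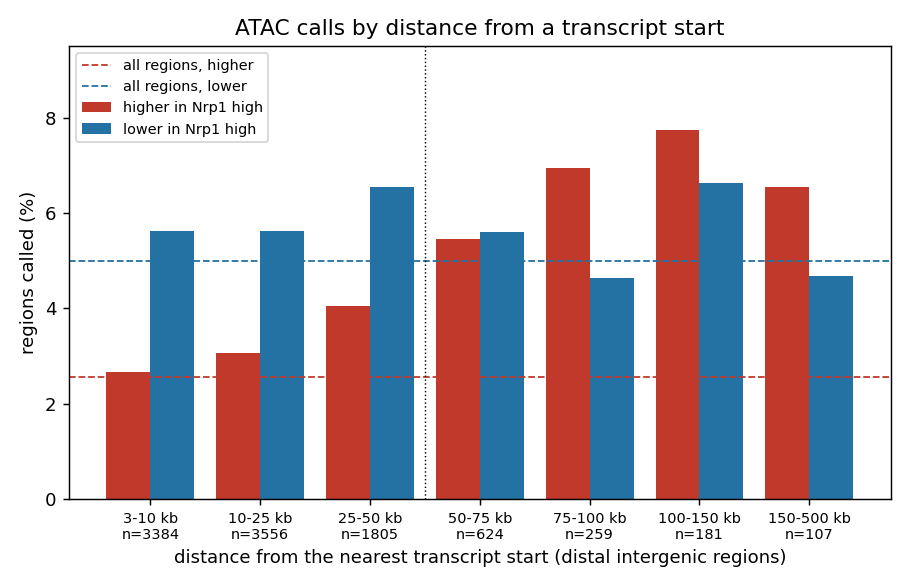
Bars give the percent of distal intergenic regions called higher (red) or lower (blue) in Nrp1 high cells at FDR under 0.05, by distance from the nearest transcript start, with the number of regions under each pair and the dotted line at 50 kb. Dashed lines are the shares over all 40796 regions (2.56% higher, 4.99% lower), and the red bars rise from 2.66% at 3 to 10 kb to 7.73% at 100 to 150 kb while the blue bars stay between 4.63% and 6.63%.

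The higher region of lowest FDR lay at chr7:71463559-71463958, 93.2 kb from the start of the predicted gene Gm29328. Its deposited log2 fold was 2.16 (4.48-fold) with an FDR of 6.77e-09, the lowest in either direction among the regions beyond 50 kb. A second region near Gm29328, at chr7:71500389-71500788, had a deposited log2 fold of 2.34 and an FDR of 0.00278. The nearest protein-coding gene of both, Mctp2, a C2-domain membrane protein of the endoplasmic reticulum, lay 614 kb and 577 kb away. All 3 distal regions nearest to Mctp2 were called higher.

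Next in FDR among the higher regions came regions on chromosome 1 that were not neighbours and had different nearest genes. One at chr1:169158248-169158647, 139 kb from the microRNA gene Mir6354 and 339 kb from Nuf2, which encodes a kinetochore protein, had a deposited log2 fold of 1.99 and an FDR of 1.57e-06. The other, at chr1:146316333-146316732 near the predicted gene Gm5263, had a fold of 1.31 with an FDR of 9.38e-06, and its neighbour at chr1:146337158-146337557 was called at 1.03 as well. The 5 further regions of lowest FDR lay near Hapln1, a link protein of the extracellular matrix (1.86), the ribosomal RNA copy n-R5s92 (2.15), Slc13a1, a renal sulfate transporter (2.09), Actr3, the Arp3 subunit of the Arp2/3 actin complex (1.90), and the predicted gene Gm29685 (1.80), with deposited FDR from 2.24e-05 to 1.55e-04. The largest deposited log2 fold was 2.87 (7.32-fold, FDR 2.01e-04), at chr7:137492410-137492809, 54.7 kb from the start of Glrx3, a glutaredoxin of iron and redox handling. The fifth largest was 2.09 (FDR 0.00128) at chr13:82950305-82950704, 115 kb from the noncoding gene 2310067P03Rik and 553 kb from Mef2c, a transcription factor of muscle, brain and blood cells.

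The regions that lost accessibility had higher FDR values and, in most cases, smaller folds. The lowest FDR belonged to chr5:85915018-85915417, 85.4 kb from the predicted gene Gm24626 and 96.6 kb from Cenpc1, a centromere protein, with a deposited log2 fold of -2.64 (6.24-fold lower, FDR 1.49e-04). It was followed by regions near the predicted genes Gm36793 (-1.75, FDR 3.15e-04) and Gm30563 (-1.23, FDR 4.40e-04), the latter 64.3 kb from Asap1, an ARF GTPase-activating protein. Regions near Gm22792 (-0.69), 1810053B23Rik (-0.92) and Ptcd2, a mitochondrial RNA processing protein (-0.58), had deposited FDR values between 5.29e-04 and 7.29e-04. The largest loss was a deposited log2 fold of -3.11 (8.65-fold lower, FDR 0.00211) at chr2:129883367-129883766, 51.1 kb from Stk35, a nuclear kinase. Further large losses lay 55.5 kb upstream of Edil3, an integrin ligand (-1.97, FDR 0.0152), and near B020031H02Rik (-1.64, FDR 0.0129). The region upstream of Edil3 was lower while the one between Edil3 and Hapln1 was higher.

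At chr12:25492747-25493146 and chr12:25516811-25517210, 98.0 and 122 kb from the noncoding gene Gm36723, the deposited log2 folds were -0.90 (FDR 0.00188) and -0.64 (FDR 0.00966). Their nearest protein-coding gene was Id2, an inhibitor of E-protein transcription factors that is active in dendritic and innate lymphoid cells, 397 and 421 kb away. These were the only distal regions beyond 50 kb with Id2 as nearest protein-coding gene, and both were called lower.

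Distance from an annotated start is not distance from a gene that makes protein, because many of the nearest starts belonged to other kinds of gene. Of the 1171 regions, 319 had a protein-coding gene as the deposited nearest gene, 193 a long noncoding RNA and 182 a pseudogene, while for 389 regions the gene name had no match in the RefSeq table. Measured to the nearest RefSeq protein-coding gene body, the median distance was 96.6 kb over all 1171 regions (1169 with a value), 153 kb for the called higher and 87.2 kb for the called lower ones. The RefSeq table also placed 13 of the regions inside a protein-coding gene and 175 inside a protein-coding or long noncoding gene, so the deposited term intergenic follows the authors' annotation.

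Of the 77 regions more than 500 kb from any RefSeq protein-coding gene, 14 were called higher (18.2%) and 1 lower (1.30%), and their deposited folds were above 0 in 39 of 77. The 14 were spread over 9 chromosomes and 11 nearest protein-coding genes, with deposited log2 folds from 0.33 to 2.34 and a median of 1.38. The same distance class held 6 higher and 0 lower of 41 distal intergenic regions within 50 kb of a start (14.6% higher), and 7 higher and 1 lower of 67 regions that were not intergenic (10.4% higher), so it was not particular to the regions beyond 50 kb. The change with distance was not steady: between 250 and 500 kb, 5 of 143 were higher and 8 lower, and between 100 and 250 kb 31 of 342 were higher (9.06%) and 16 lower. These distance classes were chosen after the values were seen. Counted against protein-coding and long noncoding gene bodies together, 17 regions were more than 500 kb away, with 4 higher and 0 lower.

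**Figure D3:**
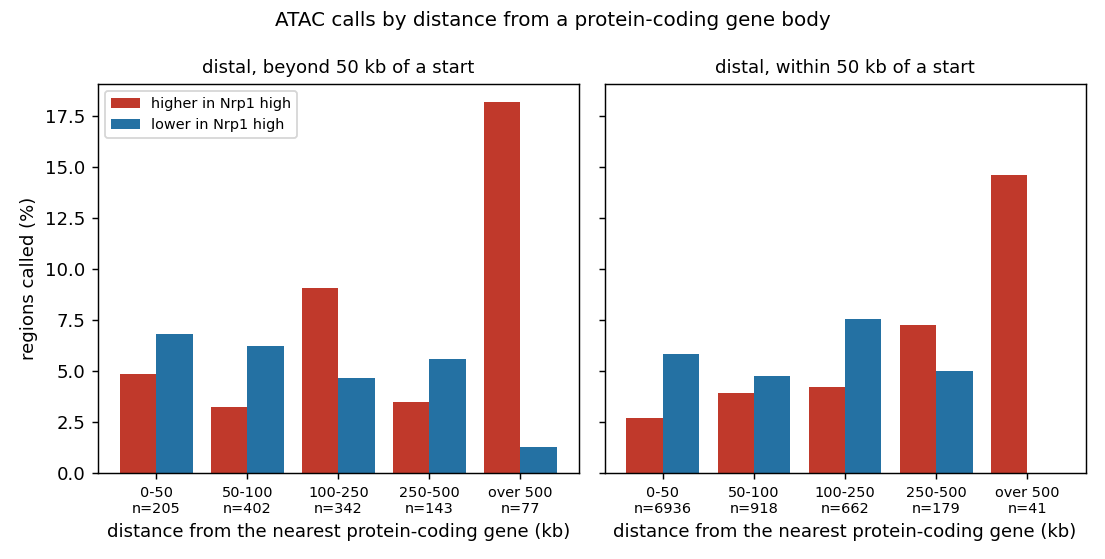
Bars give the percent of distal intergenic regions called higher (red) or lower (blue) in Nrp1 high cells by distance from the nearest RefSeq protein-coding gene body, for regions beyond 50 kb (left) and within 50 kb (right) of a transcript start. In both panels the class over 500 kb has the tallest red bar, 18.2% of 77 and 14.6% of 41 regions, while the red bar of the class from 250 to 500 kb on the left stands for 5 of 143 regions.

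Besides the regions near Gm29328 and 2310067P03Rik, the called regions in that class included chr19:19750195-19750594, 623 kb from Anxa1, which encodes the anti-inflammatory protein annexin A1 (deposited log2 fold 1.15, FDR 3.69e-04). Others were chr12:97158300-97158699, 1044 kb from Galc, a lysosomal galactosylceramidase (1.61, FDR 0.00104), chr16:53728897-53729296, 1276 kb from Alcam, a cell adhesion molecule (1.45, FDR 0.0172), and chr2:46661907-46662306, 1544 kb from Zeb2, a zinc finger repressor of the myeloid lineage (1.17, FDR 0.0199). The single lower region, chr15:29026253-29026652, lay 554 kb from Dnah5, a dynein of cilia (-0.76, FDR 0.00834).

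By chromosome, the authors' deposited table gave 14 higher and 3 lower distal regions beyond 50 kb on chromosome 1 and 7 higher and 1 lower on chromosome 14. Chromosome 2 had 2 higher and 9 lower, and chromosome 15 had 0 higher and 4 lower. The remaining called regions of these chromosomes, outside the set, leaned lower on each of them. They were 76 higher and 161 lower on chromosome 1, and 34 and 82 on chromosome 14. On chromosome 2 they were 76 and 198, and on chromosome 15 they were 30 and 80. Chromosomes 2 and 15 thus leaned as their other called regions did, and chromosomes 1 and 14 did not. These counts are small, and differences between chromosomes were not tested. On chromosome 1, 4 of the 14 higher regions lay within 621 kb near Cdc73, a subunit of the PAF1 transcription elongation complex. They were 317 to 938 kb from that gene, with deposited log2 folds from 0.79 to 1.77, and all 6 distal regions nearest to Cdc73 were above 0.

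Neighbouring regions tended to move together. Of 326 neighbouring pairs with starts within 12.5 kb, 200 had deposited folds of the same sign (61.3%), with a Pearson r of 0.37 across pairs. Of 823 neighbours farther apart on the same chromosome, 422 did (51.3%), with r of 0.05. Neighbours share their libraries and can share reads and chromatin, and the r values are descriptions. In 50 pairs with 1 called region the partner had the same sign in 42, and 2 pairs had both called. Chaining neighbours at 12.5 kb gave 845 runs, of which 634 held a single region, and 95 of the 137 called regions had no neighbouring region, called or not, within this reach.

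Among nearest protein-coding genes, 14 had at least 2 called regions beyond 50 kb, and for 11 of them these went in 1 direction, higher for 6 and lower for 5. The higher ones were Cdc73, Mctp2, Actr3, Flrt2, Cldn1 and 4930474N05Rik. Near Actr3 the regions chr1:125343117-125343516 and chr1:125345520-125345919 had deposited log2 folds of 1.90 and 1.71 (FDR 8.48e-05 and 7.02e-04). Near Cldn1, which encodes the tight junction protein claudin-1, called regions 50.8 kb from end to end had deposited folds of 1.56 and 1.54 (FDR 0.00705 and 0.0145). Near the predicted gene Gm26055, whose nearest protein-coding gene was Flrt2, a membrane adhesion protein, adjacent regions had 1.22 and 1.42 (FDR 0.00284 and 0.0225). The lower ones were Cd47, Id2, Gm826, Nap1l1 and Sh3tc2, and Brinp3, Edil3 and Kcnj2 had called regions in both directions.

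A run of lower regions lay downstream of Cd47, the surface protein that signals to macrophages not to engulf a cell. In order along chromosome 16, from chr16:49965571 to chr16:49987396, the deposited log2 folds were -0.88, -0.69, -0.99, -0.59 and -0.39, all 5 below 0. The first and the fourth were called (FDR 0.00629 and 0.0239), and the others had FDR values of 0.268, 0.0946 and 0.219. The run began 98.7 kb from the annotated start of Cd47 and 53.1 kb past the end of its RefSeq gene body. Near Sh3tc2, an adaptor of endosome recycling, 4 regions within 9.65 kb on chromosome 18 had deposited folds from -0.82 to -0.15 with 2 called. Near the predicted gene Gm826, 6 of 7 regions in a run were below 0, with folds of -0.55 and -0.42 called (FDR 0.0461 and 0.0119).

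Around Nrp1, the gene of the sorting marker, 14 distal regions beyond 50 kb lay within 500 kb of the gene body. Of these 10 had a deposited fold below 0 and 1 was called. The called one, chr8:128559163-128559562, lay 53.7 kb past the end of Nrp1 and 74.4 kb from Gm9204, its deposited nearest gene, with a log2 fold of 1.10 (2.14-fold, FDR 0.00519). The 11 regions before the gene's start had deposited folds between -0.63 and 0.32, none called. For scale, a pair of intronic regions of Nrp1 was called higher (FDR 3.51e-04 and 8.33e-04), the first with a deposited fold of 1.47, another intronic region was called lower (-0.39, FDR 0.0296), and the region at its promoter had -0.15 (FDR 0.516). Nrp1 RNA was 20.1, 57.8 and 41.5 CPM in the low and 97.3, 89.8 and 111 CPM in the high libraries. The groups did not overlap, and the log2 difference of 1.32 (SE 0.36) had an adjusted p of 0.259 by edgeR. Since the cells were sorted on Nrp1 protein, these values check the sort and are not a finding.

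Around Klf4, a zinc finger transcription factor of monocyte differentiation that the series' design text names, 12 distal regions beyond 50 kb lay within 500 kb, all on the side of higher coordinates. Of these, 11 had a deposited fold below 0 and 1 was called, chr4:55812163-55812562 at -0.97 (FDR 0.0282), 280 kb from Klf4. It sat in a run of 7 regions between 266 and 292 kb from the gene, whose deposited folds ran from -0.97 to -0.02. Klf4 RNA was 17.1, 123 and 84.8 CPM in the low and 235, 114 and 222 CPM in the high libraries. The groups overlapped, and the difference of 1.35 on the log2 scale (SE 0.62) had an adjusted p of 0.445 by edgeR, so the RNA leaned upward where the distal regions leaned downward. Other genes of the design text, Sema4a, Mapk14, Mtor and Nos2, had 0 distal regions beyond 50 kb within 500 kb.

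**Figure D4:**
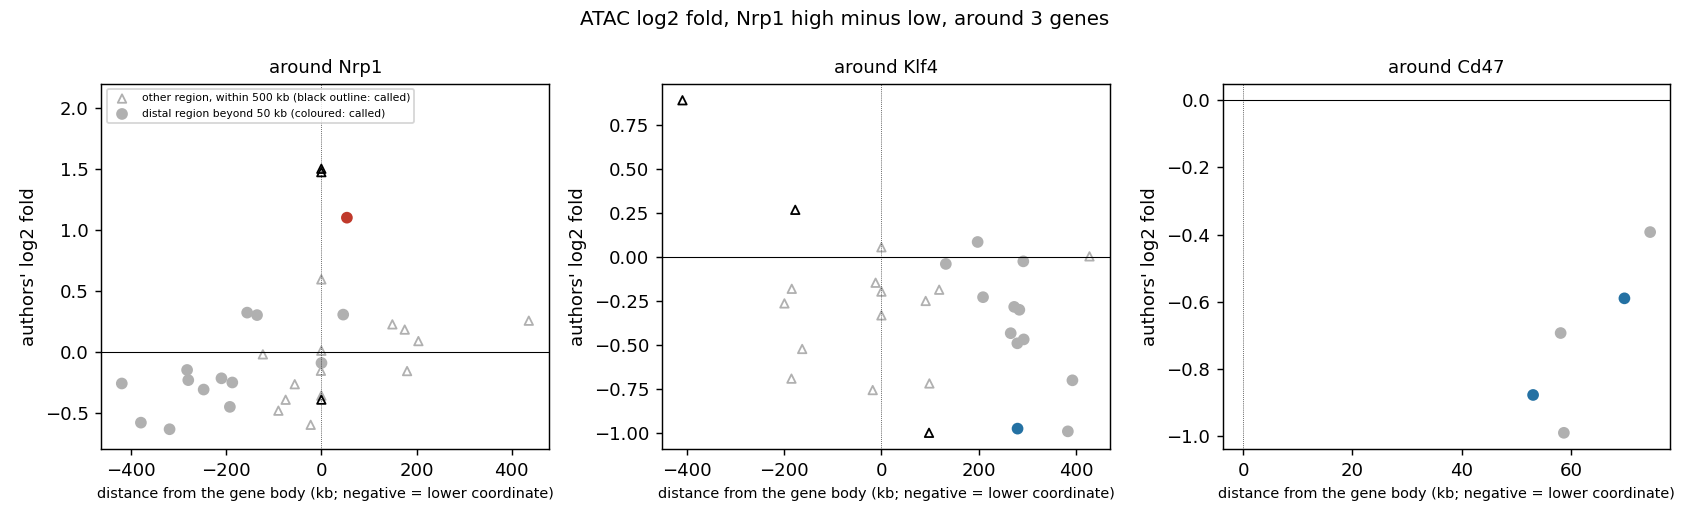
Points give the authors' log2 fold (Nrp1 high minus low) against distance from the gene body for distal regions beyond 50 kb near Nrp1, Klf4 and Cd47, red or blue where called higher or lower, and triangles give other regions within 500 kb of Nrp1 and of Klf4 (black outline where called). Near Klf4 11 of 12 and near Cd47 5 of 5 plotted distal regions lie below 0, while near Nrp1 the called region at 53.7 kb stands at 1.10.

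Of 65 listed transcription factors of blood cells, 15 were the nearest protein-coding gene of at least 1 distal region beyond 50 kb, with 49 regions in all. Their median deposited log2 fold was -0.23 (-0.12 for all distal regions beyond 50 kb), 35 were below 0, and 2 were called higher and 3 lower (10.2% called, against 11.7% of all distal regions beyond 50 kb and 7.55% of all regions). The called ones were those near Mef2c and Zeb2 (higher) and near Id2 (both regions) and Klf4 (lower). Near Mef2c all 3 regions were above 0, from 0.49 to 2.09. Near Zeb2 the deposited folds of 8 regions ran from -0.87 to 1.17, 5 of them below 0. Near Myc, a growth-promoting factor chosen here after its values were seen, 5 regions 391.9 to 881 kb away had deposited folds from -0.55 to -0.01, with a lowest FDR of 0.0526. Of 43 listed surface, cytokine and effector genes of monocytes, Nrp1 and Tnfaip3, an inhibitor of NF-kB signalling, had such a region, and the 1 near Tnfaip3 was not called (0.41, FDR 0.483). Of 22 granulocyte genes and 20 genes of other cell types none was the nearest protein-coding gene of a distal region beyond 50 kb. In RNA, 17 of the 22 granulocyte genes and 5 of 18 tested genes of other cell types were called lower in Nrp1 high cells. So were 2 of 41 tested surface, cytokine and effector genes of monocytes, against 0.676% of all genes tested. Of 64 tested transcription factors 0 were called.

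Promoter accessibility of the nearest protein-coding genes showed little of the distal differences. A deposited region within 3 kb of a transcript start of the nearest protein-coding gene existed for 81 such genes of called distal regions. Where a gene had several, the one of lowest p was taken, which favours small p-values. Its fold had the same sign as the distal one in 45. For the 40 genes with a higher distal region the promoter fold was above 0 in 20 and below in 20, with a median of 0.01. For the 41 genes with a lower distal region it was below 0 in 25, with a median of -0.07. In the whole table, 41.7% of regions within 1 kb of a start and 36.1% of those at 1 to 3 kb were above 0. Those shares are over all such regions, not over regions picked by lowest p. The promoter region was itself called for 7 of the 81 genes (8.64%), against 7.1% of 11490 protein-coding genes with a promoter region picked in the same way, a share near this background. It went in the direction of the distal region at genes that included Arhgef26, Mef2c, Cd47, Nfatc2 and Gask1b, and against it at Bhlhe40, a stress-induced transcriptional repressor (distal -0.61, promoter 0.53, with -0.16 at the other region near its start).

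At Mef2c the deposited log2 fold was 2.09 at the distal region. Of 9 deposited regions within 3 kb of one of its transcript starts, 5 were above 0 and 4 below, and the only one called, the one picked, had 0.82 (FDR 0.0210). Its RNA was 26.8, 41.2 and 40.4 CPM in the low and 73.7, 61.6 and 53.7 CPM in the high libraries, with groups that did not overlap and a log2 difference of 0.80 (SE 0.25, adjusted p = 0.324 by edgeR). At Cd47 the picked promoter region, 2.665 kb past a start, had -0.43 (FDR 0.0489), while the region lying on an annotated start had -0.05 (FDR 0.808) and the remaining one 0.11 (FDR 0.731). Its RNA was 616, 499 and 534 CPM in the low and 406, 439 and 383 CPM in the high libraries. Those groups did not overlap either (log2 difference -0.43, SE 0.18, adjusted p = 0.442 by edgeR). The RNA differences of both genes did not pass the adjusted test.

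At Nfatc2, a transcription factor of the calcineurin pathway named here after its values were seen, distal region and promoter went down while RNA leaned up. The distal region chr2:168472938-168473337 lay 54.4 kb from the predicted gene Gm14234 and 3.07 kb from the Nfatc2 gene body, with a deposited log2 fold of -0.65 (FDR 0.0385). The promoter region had -0.72 (FDR 0.0123), and it spans the RefSeq promoter window printed here on the gene's own minus strand, in which none of the 10 motifs was found.
Nfatc2 promoter, chr2:168590316-168590615: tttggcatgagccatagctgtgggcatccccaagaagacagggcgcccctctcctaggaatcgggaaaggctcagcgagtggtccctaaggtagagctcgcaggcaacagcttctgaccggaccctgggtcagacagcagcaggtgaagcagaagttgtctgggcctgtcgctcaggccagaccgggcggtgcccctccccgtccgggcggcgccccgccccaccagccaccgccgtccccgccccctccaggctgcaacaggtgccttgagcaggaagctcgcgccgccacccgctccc
Nfatc2 RNA was 0.636, 5.47 and 5.33 CPM in the low and 8.55, 9.72 and 10.98 CPM in the high libraries. The groups did not overlap (log2 difference 1.36, SE 0.67, adjusted p = 0.447 by edgeR).

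RNA of the nearest genes was then compared between the fractions. Of the 712 deposited nearest genes, 243 were listed in the RNA table and 150 passed the filter on low counts. None of the 150 was called by edgeR, against 0.682% of all 15541 genes tested, and 19 had an unadjusted p under 0.05 (12.7%, against 11.2%). DESeq2 called 4 of these genes, with Ednrb, Mir99ahg and Tsc22d2 higher and Gm9733 lower, and limma-voom called 0. The share of all genes tested that DESeq2 called is not given here, so these 4 have no background to be read against. Of 564 nearest protein-coding genes, 329 were tested, 0 were called higher (0.00643% of all genes tested) and 2 lower (0.608%, near the 0.676% of all genes tested), and 49 had an unadjusted p under 0.05 (14.9%). The groups did not overlap for 87 of the 329 (26.4%, against 20.3% of all genes tested). The median RNA log2 difference of the 329 was 0.17, compared with 0.01 over all genes tested.

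Both called genes were lower in RNA while their distal region was higher in the authors' deposited table. Serpine2, a secreted inhibitor of serine proteases, was at 29.4, 15.3 and 21.7 CPM in the low and 3.25, 3.52 and 3.76 CPM in the high libraries, a log2 difference of -2.66 (SE 0.33, adjusted p = 0.0114 by edgeR). Its distal region, chr1:80026073-80026472, 167 kb from the gene, had a deposited log2 fold of 0.80 (FDR 0.00155). Anxa1 was at 3086, 1851 and 1968 CPM in the low and 411, 777 and 514 CPM in the high libraries, a log2 difference of -2.02 (SE 0.32, adjusted p = 0.0387 by edgeR). For both genes every Nrp1 high library was below every Nrp1 low library. Neither call held when an Nrp1 high library or low replicate 3 was left out, and without low replicate 2 that of Serpine2 alone remained (adjusted p = 0.0147 by edgeR). Where a call was lost on leaving out a library, the log2 difference was -2.71 to -2.61 for Serpine2 (adjusted p 0.0694 to 0.115 by edgeR) and -2.30 to -1.83 for Anxa1 (0.0502 to 0.292). The summed neutrophil markers were lower in the same Nrp1 high libraries, and their part in these differences was not tested.

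Across genes the sign of the distal fold and of the RNA difference matched no more often than not. With the region of lowest p for each gene, 59 of 150 deposited nearest genes and 143 of 329 nearest protein-coding genes had the same sign in both. Pearson's r across these genes was -0.17 and -0.00, a description over genes that share libraries. Of the 329 RNA differences 196 were above 0, while 458 of all 1171 distal folds were. Of the genes with a called distal region, 81 were tested in RNA (not the same set as the 81 with a promoter region), and 39 matched in sign, 22 of 40 with a higher and 17 of 41 with a lower region.

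Single genes near the strongest regions showed small or variable RNA differences. Id2 was at 554, 387 and 462 CPM in the low and 225, 276 and 230.3 CPM in the high libraries. The groups did not overlap, and the direction was that of its distal regions (log2 difference -0.94, SE 0.21, adjusted p = 0.141 by edgeR, and 0.00611 to 0.697 over the alternatives, the lowest by DESeq2). Zeb2 was at 51.2, 143 and 94.7 CPM in the low and 198, 144 and 210.0 CPM in the high libraries, with groups that touched but did not overlap (log2 difference 0.93, SE 0.36, adjusted p = 0.428 by edgeR). Actr3, next to the pair of strongly higher regions, was at 1292, 1104 and 911 CPM in the low and 740, 1107 and 1004 CPM in the high libraries, which overlapped (-0.21, SE 0.24). Glrx3, nearest to the largest fold, averaged 114 ± 6.83 CPM (SD, n = 3) in the low and 104 ± 10.4 CPM in the high libraries, and Cldn1 12.5 ± 4.49 and 8.56 ± 2.11 CPM. Mctp2 averaged 2.15 ± 1.06 CPM in the low and 3.94 ± 2.07 CPM in the high libraries, also with overlap. Of the genes near the strongest lower regions, Cenpc1 was at 28.8, 34.6 and 23.9 CPM in the low and 40.2, 38.8 and 49.6 CPM in the high libraries, opposite in direction to its region (log2 difference 0.56, SE 0.24, adjusted p = 0.440 by edgeR). Stk35 (-0.03, SE 0.44), Ptcd2 (-0.23, SE 0.22), Asap1 (0.36, SE 0.30), Gpat3 (-0.30, SE 0.44) and Setd4 (0.22, SE 0.46), like Nuf2 near a higher region (-0.15, SE 0.21), had RNA log2 differences with overlapping groups, and Edil3 and Bcat1 averaged below 1 CPM in both.

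**Figure D5:**
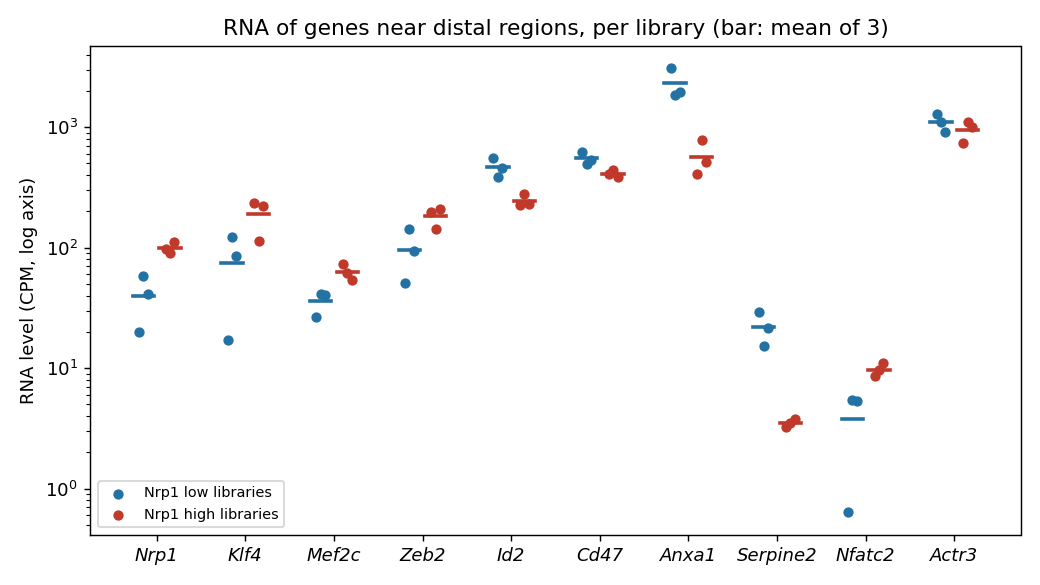
Points give the RNA level in CPM (log axis) of 10 genes near distal regions beyond 50 kb in each of 3 Nrp1 low (blue) and 3 Nrp1 high (red) libraries, with a bar at each mean. Anxa1 and Serpine2, the called genes, are lower in every high library, Id2 and Cd47 are lower without being called, and Klf4 and Actr3 overlap between the groups.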

How the data were processed

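The labels place 16 libraries in 4 groups by their titles. For ATAC-seq, the authors deposited their comparison as a log2 fold with its p-value and FDR per region. DiffBind, edgeR and ChIPseeker are among the tools, without versions, in the submitters' processing notes, and GRCm38 is the build. The treatment of reads and the libraries that entered were not given in the sources used here, and the labels name a DESeq2 table. For RNA-seq, the authors deposited estimated counts per gene, with HISAT2 and StringTie in the same notes.

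Regions were called at the deposited FDR under 0.05, with no refit. Distances to genes used RefSeq gene bodies on GRCm38.p6. RNA counts, rounded to whole numbers, were filtered with filterByExpr (15541 of 25562 genes) and scaled by TMM, and edgeR 4.0.16 (R 4.3.3) gave quasi-likelihood tests with Benjamini-Hochberg adjustment over all genes. DESeq2 1.42.0 and limma 3.58.1 were alternatives. CPM use TMM-scaled sizes, and log2 differences are Nrp1 high minus low. On simulated data for this comparison (14809 genes), 63.9% of 191 genes changed 4-fold were called, and 11 unchanged genes were called falsely. Strand was not stated, so overlapping genes are uncertain. Named regions were, per direction, the 8 of lowest FDR and 5 of largest fold, those at the 50 kb limit, the longest runs with called regions of one sign, and regions of genes with several called regions or on the gene lists. Named genes were the genes nearest to these. Other names, among them Anxa1, Serpine2, Galc, Alcam, Dnah5, Bhlhe40, Arhgef26 and Gask1b, were chosen after their values were seen. Regions, lists and rules were chosen with earlier results of these data known. The alternatives were other thresholds, distances, scalings, tests and left-out libraries. Results for some items are not reported here.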

Additional observations from a re-analysis of the deposited data

How the results depend on the processing

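ATAC calls beyond 50 kb moved with the threshold. Shares of all regions at the other thresholds are not given here, and whether the whole table moved in the same way was not tested. Higher and lower calls were 38 and 21 at FDR under 0.01 (5.04% called, 64.4% of them higher), 100 and 114 at FDR under 0.1 (18.3%, 46.7%), 51 and 18 with a log2 fold of at least 1 in size (5.89%, 73.9%), and 10 and 2 after Bonferroni (1.02%, 83.3%). Beyond 100 kb they were 21 and 17, and beyond 25 kb 146 and 182 (44.5% higher). One region per nearest gene, the one of lowest p, left 17.7% called, and 1 per nearest protein-coding gene 20.7%. Picking by lowest p raises the share called, and no share over all regions picked in the same way is given here. The alternatives by chromosome 1, by protein-coding gene and by distance to a gene body were added after seeing the data. The motif search over whole regions and their central 200 bases was not run.

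In RNA, nearest deposited genes called higher and lower were 0 and 0 in edgeR and limma-voom, and without any 1 library, and 3 and 1 by DESeq2. At adjusted p under 0.1 there was 1 lower. Taking the nearest protein-coding gene gave 2 lower. For protein-coding genes DESeq2 called 7 higher and 8 lower, and no share of all genes called by DESeq2 is given beside its counts. At adjusted p under 0.1, 1 was higher and 4 lower. Without the filter on low counts 1 was higher, Adgrg6. With a replicate block 0 were lower, though same-numbered libraries did not deviate together (r -0.24, -0.24 and 0.02), so the numbers do not pair them. Leaving out 1 library gave 0 to 1 higher and 0 to 2 lower. The RNA log2 difference reversed its sign for Stk35 with the replicate block (0.032), with limma-voom (0.10) and when 1 library was left out (-0.36 to 0.36). It also did so for Edil3 with the block (0.50), and without 1 library for Edil3 (-0.69 to 1.55), Bcat1 (-1.72 to 0.26), Setd4 (-0.11 to 0.50) and Nuf2 (-0.27 to 0.0099). The cause was not tested. The ATAC depth is unknown, so no region's precision could be set against its reads.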
